A study of Mus musculus with 12 samples.

Results

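The regions described here were the intronic ChIRP-seq peaks of Mirlet7d that lay within 10 kb of a transcription start site (TSS). They were 602 of the 4286 peaks of the deposited list, a share of 14.0% with an exact Clopper-Pearson 95% interval of 13.0% to 15.1%. A peak was included when the deposited annotation placed it in an intron, named no repeat element at its position, and put its centre at most 10000 bases from the nearest TSS. Of the 4286 peaks, 1826 were intronic, and 1421 of these carried no repeat. All intervals given for shares cover counting error only.

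The study used MLE-12 cells, an established mouse line of lung epithelial origin, and its design text asks which RNAs associate with Mirlet7d in the nucleus. ChIRP-seq is a method in which biotinylated probes against an RNA capture the chromatin that the RNA touches, and the captured DNA is sequenced. The series holds 12 libraries, and those used here each stood alone in their group. The Mirlet7d ChIRP-seq library was made with 150 pmol of biotinylated tiling probes against mature Mirlet7d and belongs to a series that also holds an input library of MLE-12 chromatin. The labels tag the ChIRP-seq library as Mirlet7d gain of function and the input only as control, and the protocol describes no transfection for either. The Mirlet7d pull-down library came from MLE-12 cells harvested 48 h after transfection with 25 nM of biotinylated Mirlet7d, and its input is the total RNA library of the same protocol. No capture with unrelated probes or an unrelated microRNA was used here, so association with Mirlet7d and capture without it cannot be told apart.

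The let-7 family is among the most conserved of the animal microRNA families. In the cytoplasm a microRNA pairs with target RNAs mainly through its seed, the bases next to its 5′ end, and lowers their translation and stability. Nuclear microRNAs have also been found on chromatin and with nascent transcripts. Introns close to a TSS often hold enhancers, alternative promoters and the downstream edge of the promoter itself, and the promoters of widely expressed mouse genes tend to be rich in CpG dinucleotides.

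The mature Mirlet7d sequence is shown because it is the RNA that the probes were made against. Bases 2 to 8, the seed, are in capitals, and RefSeq places it on the minus strand of chr13:48536078-48536099 in GRCm38.p6.
let-7d-5p: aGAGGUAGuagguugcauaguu

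Among the 602 peaks, 31 reached across the nearest TSS, 5.15%, against 7.76% of all other peaks and 62.2% of promoter peaks. Of these 31, 11 spanned the whole stretch from 250 bases before to 50 bases after the TSS, 1.83% of the 602. That share was 5.81% of all other peaks and 50.6% of promoter peaks, so neither trait is particular to the 602. The RefSeq promoter windows of 5 of those 11 genes are printed below, since an intronic peak contained the whole promoter window there. They were taken from the GRCm38.p6 table, whose start need not be the TSS that the mm9 annotation of the peaks used. Capitals mark CpG dinucleotides. Usp36, a nucleolar deubiquitinase, had 33 of them in 300 bases on the minus strand of chr11:118290195-118290494.
Usp36: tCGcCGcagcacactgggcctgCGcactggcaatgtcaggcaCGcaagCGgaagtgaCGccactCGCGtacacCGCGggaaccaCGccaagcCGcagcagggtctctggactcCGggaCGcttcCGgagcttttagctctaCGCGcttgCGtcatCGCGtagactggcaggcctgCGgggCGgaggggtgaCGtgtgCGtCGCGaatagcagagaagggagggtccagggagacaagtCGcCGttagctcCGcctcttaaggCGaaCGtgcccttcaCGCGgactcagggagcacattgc
Rnaseh2a, the catalytic subunit of ribonuclease H2, had 23 CpG dinucleotides on the minus strand of chr8:84966027-84966326.
Rnaseh2a: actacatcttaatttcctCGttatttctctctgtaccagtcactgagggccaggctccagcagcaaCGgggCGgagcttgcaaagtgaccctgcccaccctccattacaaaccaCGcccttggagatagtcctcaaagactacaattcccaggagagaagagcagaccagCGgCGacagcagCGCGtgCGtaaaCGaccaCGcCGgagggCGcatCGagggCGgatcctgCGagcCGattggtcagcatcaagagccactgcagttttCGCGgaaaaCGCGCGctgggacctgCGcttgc
Amn1, named after a yeast gene of mitotic exit, had 14 on the minus strand of chr6:149188646-149188945 and is the window of the 5 that held no GC box.
Amn1: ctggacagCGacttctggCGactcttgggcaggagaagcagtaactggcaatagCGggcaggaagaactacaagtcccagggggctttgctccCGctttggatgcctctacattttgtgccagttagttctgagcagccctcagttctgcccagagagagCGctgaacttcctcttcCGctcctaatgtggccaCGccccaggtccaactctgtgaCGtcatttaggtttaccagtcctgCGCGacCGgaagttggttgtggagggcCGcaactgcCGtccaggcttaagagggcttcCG
Nop2, a nucleolar methyltransferase of ribosomal RNA, had 35 on the plus strand of chr6:125131633-125131932.
Nop2: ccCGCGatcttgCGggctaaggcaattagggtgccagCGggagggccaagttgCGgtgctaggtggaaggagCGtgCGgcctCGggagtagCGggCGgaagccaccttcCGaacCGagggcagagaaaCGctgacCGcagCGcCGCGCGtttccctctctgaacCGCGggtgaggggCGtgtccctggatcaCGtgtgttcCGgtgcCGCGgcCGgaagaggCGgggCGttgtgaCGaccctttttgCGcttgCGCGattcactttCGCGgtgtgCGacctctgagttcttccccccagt
Actr1a, the actin-related protein Arp1 of the dynactin complex, had 17 on the minus strand of chr19:46395692-46395991.
Actr1a: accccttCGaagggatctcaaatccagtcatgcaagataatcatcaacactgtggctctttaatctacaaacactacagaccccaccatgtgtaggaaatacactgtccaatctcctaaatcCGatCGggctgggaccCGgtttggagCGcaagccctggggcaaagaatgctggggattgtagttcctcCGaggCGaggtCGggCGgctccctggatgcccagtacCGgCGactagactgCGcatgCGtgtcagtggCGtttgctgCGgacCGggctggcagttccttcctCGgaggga

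Promoter windows were searched for the let-7 seed (GAGGTAG, and CTACCTC on the other strand) and for the GC box (GGGCGG, and CCGCCC on the other strand). At the 45 genes with an intronic peak within 500 bases of the TSS, 38 matched the promoter table (84.4%), with 48 windows. None of the 48 windows held the seed letters, and a count of 0 among 48 allows a share of up to 6.25% taken as 3 counts, with an exact upper bound of 7.40%. Over all 32851 windows of the table the share was 3.85%, so a difference was not detectable at this number of windows. The GC box stood in 38 of the 48 windows, 79.2% (65.0% to 89.5%), against 35.7% of all windows, and the median number of CpG dinucleotides was 20 against 7. The same comparison was void for the genes of far intronic and of promoter peaks, of which 74.6% and 79.9% had a window, so the contrast is not shown to set these genes apart from those near other peaks. The 39 windows of genes whose peak touched the promoter window gave a GC box share of 79.5% and again no seed. All windows of the table include promoters that may be silent in these cells, and the part of that in the contrast was not tested. For the whole set the check was void, because only 409 of the 558 nearest genes (73.3%) had a window. The genome sequence under the peaks themselves was not used here.

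The peaks lay mostly downstream of the TSS and in the gene that the TSS belongs to. Both follow in part from the rule, since an intron close to a TSS often belongs to its gene and so lies downstream. The contrasts with far intronic peaks given here are therefore in part ones of selection. Of the 602, 527 lay downstream of the nearest TSS, 87.5% (84.6% to 90.1%), against 641 of the 819 repeat-free intronic peaks beyond 10 kb, 78.3% (75.3% to 81.0%). The intron belonged to the gene of the nearest TSS in 526, 87.4% (84.5% to 89.9%), against 65.7% (62.3% to 68.9%) of the far intronic peaks. The side and the gene went together. Of the 527 downstream peaks, 502 lay in an intron of the same gene and 25 in an intron of another. Of the 75 upstream peaks, 24 lay in an intron of the same gene, upstream of an alternative start, and 51 in an intron of another gene. None lay between 1000 bases upstream and the TSS, where the annotation assigns peaks to its promoter class, whose 405 peaks ran from -990 to 823 bases. The closest upstream peak was centred at -1054 bases and the closest downstream peak at 154 bases.

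**Figure D1:**
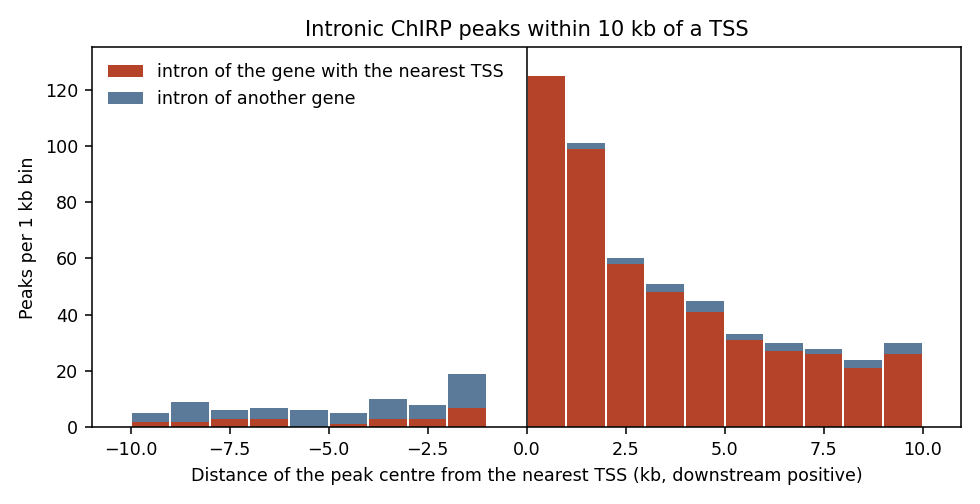
Number of intronic peaks (vertical axis) in 1 kb bins of the distance from the nearest TSS (horizontal axis, kb, downstream positive), with peaks in an intron of the gene of that TSS in red and peaks in an intron of another gene in blue. The bin from 0 to 1 kb downstream held 125 peaks, all in the gene's own intron, the bin just upstream held 0, and the bins further upstream were mostly blue.

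Peak density was highest between 500 and 1000 bases from the TSS and lower in each bin beyond. Within 500 bases there were 45 peaks, or 90 per kb of distance, and between 500 and 1000 bases there were 80, or 160 per kb. The density was 120 per kb between 1000 and 2000 bases, 59.7 per kb between 2000 and 5000 bases and 35.6 per kb between 5000 and 10000 bases. Both bins within 1000 bases hold downstream peaks only, whereas the bins beyond count both sides, so the densities are not on the same scale. Of the 405 promoter peaks, which are not counted here, 86 lay downstream of the TSS. Their part in the lower density within 500 bases was not tested. Just inside the limit lay a peak 9950 bases upstream of Arl5c, in an intron of the calcium channel subunit gene Cacnb1, with a score of 49.7, and a peak 9929 bases upstream of a Tmem92 start, with a score of 30.4. Just outside it lay peaks at 10145 bases in Trim25, a ubiquitin ligase gene, and at 10273 bases in Car5a, a mitochondrial carbonic anhydrase gene, with scores of 32.2 and 33.9.

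Intron 1 held 381 of the 602 peaks, 63.3% (59.3% to 67.1%), against 194 of the 819 far intronic peaks, 23.7% (20.8% to 26.8%). Intron 2 held 96 peaks, intron 3 held 39, intron 4 held 21, intron 5 held 13 and later introns 52. Because intron 1 starts near the TSS, this share follows in part from the distance rule: it was 97.8% within 500 bases and 46.6% between 5000 and 10000 bases. Intronic repeat peaks within 10 kb, left out by the rule, gave 55.4% (46.4% to 64.1%). The median score followed no order along the gene: 34.7 in intron 1, 34.0 in intron 2, 36.0 in intron 3, 31.5 in intron 4 and 35.5 in intron 5.

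The deposited MACS score is the authors' value for each peak and serves here to rank peaks within the list, which starts at 30.01. The 602 peaks had a median score of 34.5 (34.0 to 35.0) and reached 145.55, with 50% of them between 31.8 and 40.0. The far intronic peaks had a median of 33.9 (33.7 to 34.3), the promoter peaks 36.1 (35.2 to 37.3) and all 4286 peaks 34.3 (34.1 to 34.5). Scores of at least 40 were held by 25.2% (21.8% to 28.9%) of the 602, against 21.4% (18.6% to 24.3%) of far intronic and 37.3% (32.6% to 42.2%) of promoter peaks. The intervals of the 602 and of the promoter peaks did not overlap, whereas those of the 602 and of the far intronic peaks did. The median width was 653 bases, against 643 bases for far intronic and 703 bases for promoter peaks. Peaks are not replicates of one another, so these contrasts carry no test.

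The 10 highest scores were held by peaks with centres between 1094 bases upstream and 8611 bases downstream of a TSS. The highest, 145.55, was a peak in intron 1 of Trim8, a ubiquitin ligase gene, at chr19:46576564-46579221 (mm9), 1754 bases from the TSS and 2658 bases wide. C1qtnf1, which encodes a secreted protein related to complement C1q, had a peak with a score of 96.5 in intron 1, 3021 bases from its TSS. Wbp1l and Wbp1, both named for binding WW domains, had peaks of 92.9 at 1001 bases and 81.5 at 1124 bases, each in intron 1.

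Usp36 had a peak of 89.3 at chr11:118150068-118152065, which is the peak over the promoter window printed above. Cacna1c, the pore subunit of the L-type calcium channel, had a peak of 80.8 in intron 1 at 3923 bases. The peak at 74.95 was nearest to Gm10638, a predicted gene, from which it lay 1094 bases upstream, and stood in intron 1 of Siah1a, a ubiquitin ligase gene. Thra, the thyroid hormone receptor alpha gene, had a peak of 74.5 at 8611 bases, the farthest of the 10. Mafg, a small Maf transcription factor gene, had a peak of 73.3 at 1386 bases, and Rnaseh2a one of 72.1 at 154 bases. All 10 lay in an intron 1 and on chromosomes 6, 8, 11 and 19.

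**Figure D2:**
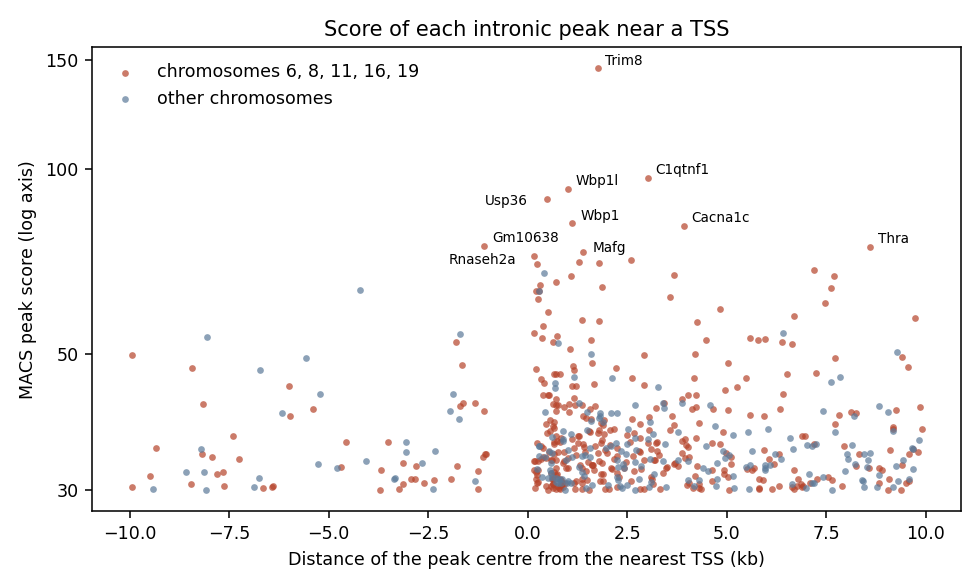
MACS score of each of the 602 intronic peaks (vertical axis, log scale) by the distance of its centre from the nearest TSS (horizontal axis, kb), with peaks on chromosomes 6, 8, 11, 16 and 19 in red and peaks on the other chromosomes in blue. The 10 named peaks run from 72.1 to 145.55 and are all red, while most points lie between 30 and 40 at every distance.

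The 31 peaks that reached across the TSS were all in intron 1, with centres 154 to 492 bases downstream. Their median width was 819 bases, against 649 bases for the other 571, and their median score was 35.4, against 34.5. A wide peak reaches the TSS more easily, so width is part of how these 31 were found. The deposited annotation gave 17 of them as CpG islands. The 5 nearest centres belonged to Rnaseh2a at 154 bases, Tmem109, a transmembrane protein gene, at 156, Actr1a at 160, Sec13, a gene of the COPII coat and the nuclear pore, at 171, and Klhl24, a kelch-like gene, at 175. Their scores ran from 30.2 for Klhl24 to 72.1 for Rnaseh2a. The 11 that spanned the whole promoter window were those of Usp36, Rnaseh2a, Amn1, Nop2, Rnf181, Cops7a, Actr1a, Chaf1b, 9130011E15Rik, Kazald1 and Babam1. Chaf1b encodes a subunit of chromatin assembly factor 1, Cops7a a subunit of the COP9 signalosome and Babam1 a member of the BRCA1-A complex.

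**Figure D3:**
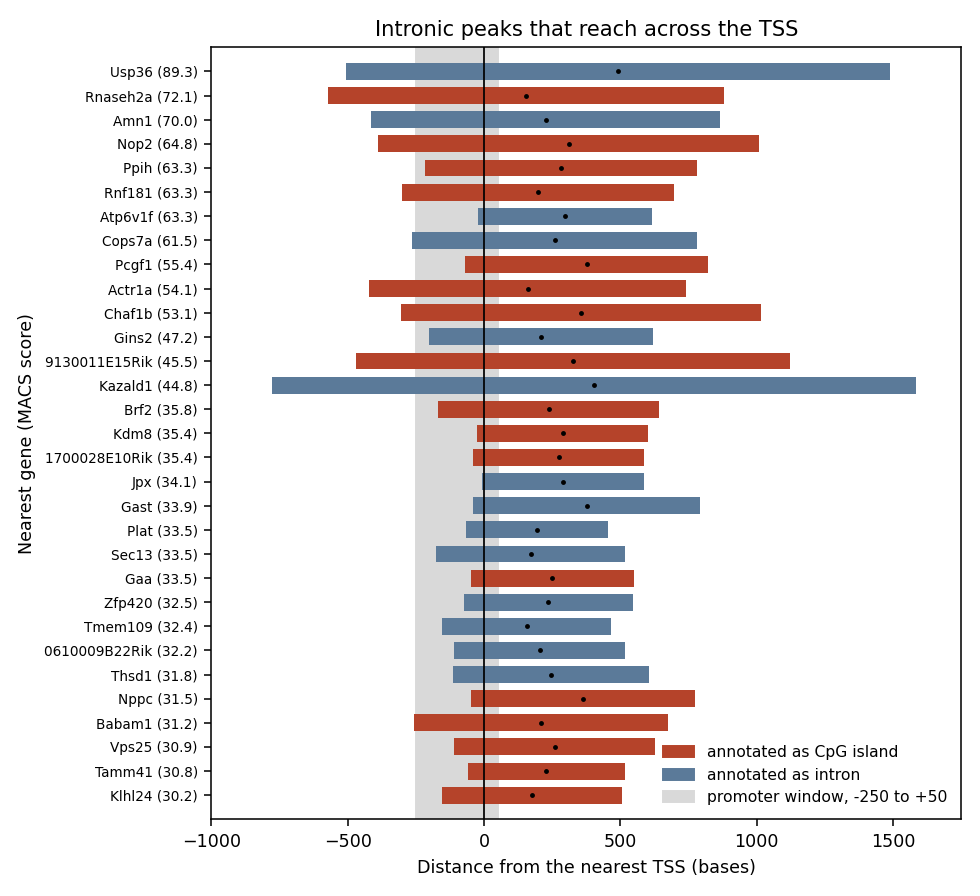
Extent of the 31 intronic peaks that reached across the nearest TSS (horizontal axis, bases from the TSS at 0), ordered by MACS score from the top, with the peak centre as a dot. Peaks annotated as CpG islands are red (17) and the others blue, and the grey band from 250 bases before to 50 bases after the TSS marks the promoter window, which 11 peaks span in full.

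CpG islands accounted for 32 of the 602 peaks, 5.32% (3.66% to 7.42%), against 17 of the 3684 other peaks of the list, 0.461% (0.269% to 0.738%), and 3 of the 819 far intronic peaks. Their centres had a median distance of 360 bases from the TSS and none lay beyond 2828 bases. Within 500 bases 21 of 45 peaks were CpG islands, between 500 and 1000 bases 8 of 80, and beyond 5000 bases 0 of 178. The annotation gives promoter peaks no finer class and repeat peaks a repeat name instead, so the contrast with the other peaks is in part one of labels. Of the 32, 29 lay in intron 1, and their scores ran from 30.2 to 72.1 with a median of 36.4.

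The widest peaks lay at genes with high or moderate scores. The widest, 3523 bases, was 7631 bases from the TSS of G530011O06Rik on chromosome X, with a score of 44.9. Trim8 had peaks of 2933 and 2658 bases, both in intron 1 and 5863 bases from the start of the left one to the end of the right one. Kazald1, which encodes a protein with a Kazal-type inhibitor domain, had a peak of 2365 bases, and Usp36 one of 1998 bases.

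The 602 peaks were nearest to 558 genes, of which 520 had 1 peak, 33 had 2 and 5 had 3 or more. By the biotype of the nearest gene, 557 peaks belonged to protein-coding genes, 42 to noncoding RNA genes, 2 to small nucleolar RNA genes and 1 to a pseudogene. Bcar1, which encodes the adhesion adaptor p130Cas, had 4 peaks in 14108 bases of intron 1, with scores between 30.2 and 52.7. Glis2, a zinc-finger transcription factor gene, had 3 within 5545 bases, centred 4904 to 9844 bases from its TSS, with scores between 37.4 and 43.1. Hipk2, a nuclear kinase gene, had 3 over 29584 bases with scores up to 39.0, and Cuedc1, a CUE-domain gene, 3 over 61503 bases with scores up to 46.5. Sept9, a septin gene with several starts, had 3 over 76501 bases with scores up to 49.5. In the last 3 genes and in Bcar1 the peaks were measured from more than 1 start of the same gene.

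The peaks were unevenly spread over chromosomes. Chromosomes 6, 8, 11, 16 and 19 held 400 of the 602, 66.4% (62.5% to 70.2%), against 61.5% (59.9% to 63.1%) of the other 3684 peaks. The share was 67.2% (62.4% to 71.7%) of promoter peaks and 65.4% (56.5% to 73.5%) of intronic repeat peaks within 10 kb. It was 63.8% of intergenic peaks within 10 kb and 62.8% of far intronic peaks, so it is not particular to the 602. These 5 chromosomes were taken as peak-rich with earlier results of these data known. Chromosome 11 alone held 129, which was 21.4% of the 602 against 13.5% of the other peaks, and chromosome 19 held 9.80% against 7.63%. The share was lower than that of the other peaks on chromosome 6 (12.5% against 15.3%), chromosome 8 (15.6% against 15.8%) and chromosome 16 (7.14% against 9.34%). Of all peaks on chromosome 11, 20.6% were intronic and near a TSS, beside 19.9% on chromosome 4, 17.4% on chromosome 19, 17.2% on chromosome 2, 13.9% on chromosome 8, 11.8% on chromosome 6 and 11.1% on chromosome 16. On chromosome 11, 110 of the 129 lay beyond 70 Mb, but the other peaks of that chromosome were not counted by this boundary. The count therefore does not set the 129 apart from them. The share on the 5 chromosomes was 80.0% (65.4% to 90.4%) within 500 bases of the TSS and 58.4% (50.8% to 65.8%) between 5000 and 10000 bases. Gene density and DNA copy number per chromosome were not measured here, and their part in this spread was not tested.

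Pooled over chromosomes, scores of the 602 were higher and peaks wider on the 5 than on the others. All other peaks of the list were not split in this way, so the difference is not shown to be particular to the 602. On the 5 chromosomes the 400 peaks had a median score of 34.9 and a median width of 685 bases, and 29.0% (24.6% to 33.7%) scored at least 40. On the other chromosomes the 202 peaks had a median score of 33.9 and a median width of 610.5 bases, and 17.8% (12.8% to 23.8%) scored at least 40. Their highest score was 67.6, against 145.55 on the 5 chromosomes. Single chromosomes did not all follow this: the median score was 34.4 on chromosome 11 and 34.5 on chromosome 16, beside 35.8 for 28 peaks on chromosome 4 and 35.0 for 31 peaks on chromosome 2.

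**Figure D4:**
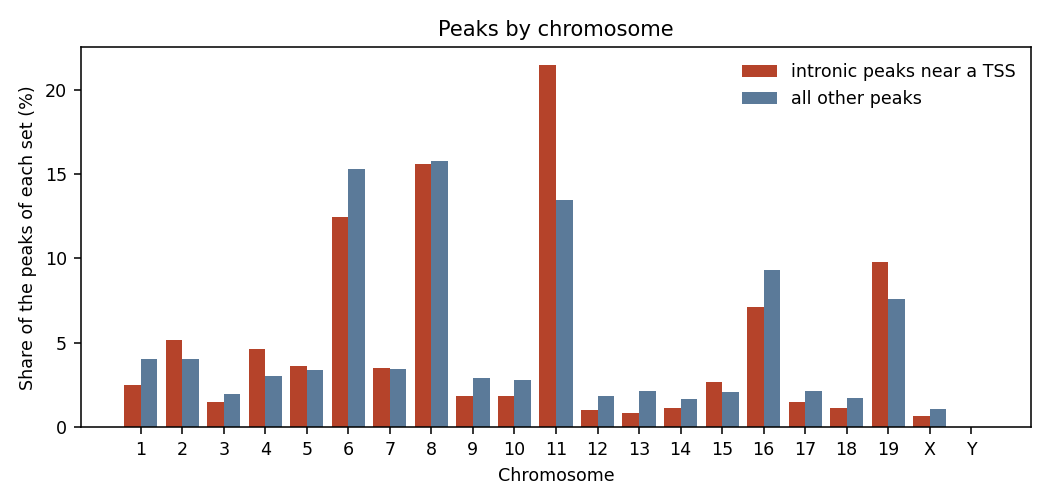
Share of the 602 intronic peaks near a TSS (red, left) and of the 3684 other peaks (blue, right) on each chromosome, in percent of each set. Chromosome 11 stands highest in red at 21.4%, against 13.5% in blue, and chromosome 6 is lower in red at 12.5% than in blue at 15.3%.

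Some stretches of 1 Mb held many of these peaks. Of the windows with at least 1 of these peaks, 232 held a single one and 2 held 10. Other peaks and genes were not counted by these windows, so the counts do not set this set apart. The window from 46 to 47 Mb on chromosome 19 held 10, at Trim8, Wbp1l, Actr1a, 9130011E15Rik, Ldb1, Pprc1 and Cyp17a1, and so included the first and the third highest score of the set. Ldb1 encodes a LIM-domain cofactor, Pprc1 a coactivator of the PGC-1 family and Cyp17a1 a steroid hydroxylase. The window from 117 to 118 Mb on chromosome 11 held 10, at Sept9, Tmc6, Tk1, Pgs1, Afmid and Mir6933, and the window from 94 to 95 Mb on the same chromosome held 9, among them Itga3 and Pdk2.

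Noncoding RNAs enriched in the Mirlet7d pull-down lay within 10 kb of 105 of the 602 peaks, 17.4% (14.5% to 20.7%). The share was 8.91% (7.05% to 11.1%) for far intronic peaks, 24.7% (20.6% to 29.2%) for promoter peaks and 11.6% (10.6% to 12.7%) for all 3684 other peaks. Peaks of other kinds at the same distance gave like shares: 16.9% (10.9% to 24.5%) of the intronic repeat peaks within 10 kb and 17.3% (13.2% to 22.0%) of the intergenic peaks within 10 kb. The list of 6208 noncoding candidates includes 2432 that the authors deposited as promoter-associated, so closeness to a TSS brings a peak near the list, and its part in the share was not tested.

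**Figure D5:**
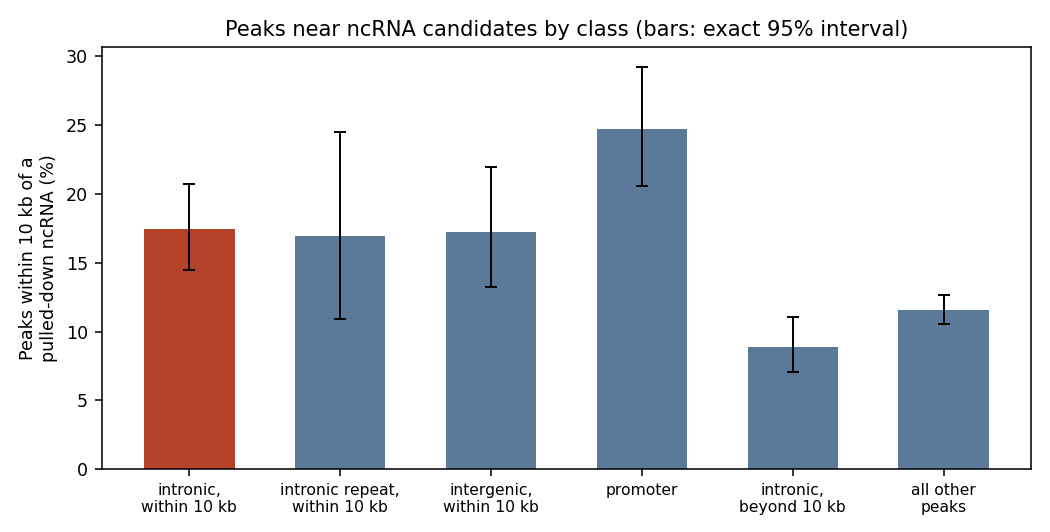
Share of peaks that lay within 10 kb of a pulled-down noncoding RNA (vertical axis, percent) for the 602 intronic peaks near a TSS (red) and 5 other sets of peaks (blue), with exact 95% intervals. The red bar at 17.4% stands beside 16.9% for intronic repeat peaks and 17.3% for intergenic peaks at the same distance, above 8.91% for intronic peaks beyond 10 kb and below 24.7% for promoter peaks.

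A noncoding candidate overlapped 23 of the 602 peaks by at least 1 base, 3.82% (2.44% to 5.68%), against 2.81% (1.79% to 4.18%) of far intronic and 10.1% (7.36% to 13.5%) of promoter peaks. These 23 peaks overlapped 27 candidates, of which 22 were on the promoter-associated list. The candidates' folds of pull-down over input in the authors' deposited table ran from 3.22 to 78.76 with a median of 5.99, against a median of 5.06 over all noncoding candidates. Folds below 2.5 are not in that list. The input was exactly 1 RPKM in 5 of the 27 and in 25.2% of the whole list, a value whose origin the sources used here do not give.

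The 10 highest-scoring of these peaks stood at genes of varied function. Mthfd2, a mitochondrial enzyme of folate metabolism, had a peak of 44.7 in intron 1, covered in full by a noncoding RNA at 14.4 RPKM in the pull-down and 3.70 RPKM in the input. Tead4, a transcription factor gene of the Hippo pathway, had a peak of 44.3 and a noncoding RNA at 3.22 RPKM in the pull-down, with an input listed at 1. Mthfsd had a peak of 42.9 in intron 4 that met 2 candidates, with deposited folds of 24.7 and 5.31.

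The peak named 3110001I22Rik, whose TSS accession RefSeq assigns to Bfar, an apoptosis regulator gene, scored 42.9 and met 2 candidates of the Bfar promoter, with deposited folds of 6.25 and 5.99. The peak named Naa38 lay in intron 2 of Lsm8, a gene of the U6 small nuclear RNA core, scored 41.5 and met a candidate at 10.1 RPKM in the pull-down and 1.18 RPKM in the input. Nde1, a centrosome and dynein cofactor gene, had a peak of 40.9 over a candidate with 4.57 RPKM in the pull-down and 0.165 RPKM in the input.

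Csgalnact1, a chondroitin sulfate synthesis gene, had a peak of 38.7 at 652 bases from its TSS. It met 3 overlapping candidates that span 178045 to 273535 bases, at 0.175 to 0.269 RPKM in the pull-down and 0.003 to 0.005 RPKM in the input. At such inputs the deposited folds of 53.8 and 58.3 rest on values of 1 significant digit. Rps6kb1, which encodes the S6 kinase, had a peak of 38.6 over a candidate assigned to the neighbouring gene Tubd1. Prkag2os1, an antisense RNA gene, and Taco1, a mitochondrial translation activator gene, had peaks of 37.5 each, with candidates at deposited folds of 18.0 and 3.77. The deposited values of overlapping and antisense transcripts can share reads, since the strand setting of the counting is not given in the sources used here.

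Matched by the gene name as deposited, 46 of the 602 peaks had a nearest gene on the promoter-associated list, 7.64% (5.65% to 10.1%), against 8.91% (7.05% to 11.1%) of far intronic, 12.6% (9.52% to 16.2%) of promoter and 8.96% (8.05% to 9.93%) of all other peaks. The 44 genes concerned were 7.89% of the 558 and 2.71% of the 1624 on that list. Adding matches by the current RefSeq name, which include Bfar and Lsm8, gave 48 peaks, 7.97% (5.94% to 10.4%). Wbp1l and Mafg combined a score among the 10 highest with a promoter-associated RNA. That of Wbp1l stood at 16.04 RPKM in the pull-down and 0.878 RPKM in the input, a deposited fold of 18.3. That of Mafg stood at 14.6 RPKM in the pull-down and 3.43 RPKM in the input, a deposited fold of 4.25. Pcgf1, a Polycomb group gene, and Gins2, a gene of the replication helicase, had peaks across the TSS with scores of 55.4 and 47.2 and candidates with inputs listed at 1. The intron 2 peak of the glycolytic gene Gapdh lay within a candidate at 46.4 RPKM in the pull-down and 12.5 RPKM in the input.

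By the deposited name, genes on the mRNA candidate list were nearest to 36 of the 602 peaks, 5.98% (4.22% to 8.18%), against 7.08% (5.42% to 9.06%) of far intronic, 6.91% (4.64% to 9.84%) of promoter and 6.60% (5.82% to 7.45%) of all other peaks. They were 32 genes, 5.73% of the 558 and 2.12% of the 1509 genes on that list. The highest-scoring peak among them, 52.3, was nearest to 2810428I15Rik and stood in an intron of another gene. Tlr2, a pattern recognition receptor gene, had a peak of 45.6 in intron 2, and its mRNA stood at 4.39 RPKM in the pull-down and 1.66 RPKM in the input. The 3110001I22Rik peak of 42.9 was also among them, and the transcript listed under that name stood at 2.80 RPKM in the pull-down and 0.091 RPKM in the input. Cdc42ep2, an effector of the small GTPase Cdc42, and Spire2, an actin nucleator gene, had peaks of 41.6 and 41.3. Spire2 was listed at 0.076 RPKM in the pull-down and 0.002 RPKM in the input.

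By the deposited name, 5 of the 558 nearest genes (0.896%) were on both pull-down lists. They were Cbx3, Csgalnact1, Eaf2, Rbm34 and Taco1, and were chosen after their values were seen. Matching also by the current name added Bfar and Lsm8 and gave 7 genes. The same share among the genes of other peaks was not counted here, so these counts do not set the 558 apart. Cbx3 encodes heterochromatin protein 1 gamma and had deposited folds of 2.86 for its mRNA and 2.66 for its promoter-associated RNA. Eaf2, an RNA polymerase II elongation factor gene, had 2 mRNA transcripts at 14 and 5.17, the first with an input of 0.001 RPKM, and 3 promoter-associated RNAs at 13.2, 4.31 and 3.19. Rbm34, an RNA-binding protein gene, had 3.87 and 5.43.

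Over 14 lists of pathway and marker genes with 378 genes in all, 21 genes had an intronic peak near their TSS. Of the 378, 96 were nearest to a peak of any class, beside 3192 genes of any biotype over the whole peak list. How many of the 3192 were protein-coding was not counted. Counts of genes nearest to any peak, here and below, therefore do not set a list apart. The 21 are 5.56% of the listed genes, beside 2.45% of the 21031 protein-coding genes with a curated RefSeq transcript. The lists hold well-studied genes and were written with earlier results of these data known, so the contrast supports nothing. None of the 21 was on either pull-down list, beside 7.89% and 5.73% of all 558 nearest genes on the promoter-associated and the mRNA list, shares at which 0 of 21 is a small difference.

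Of 33 WNT pathway genes, 4 had such a peak. The ligand gene Wnt5b had a peak of 40.6 in intron 3 and Wnt4 one of 36.2 in intron 1, 9840 bases from the TSS. The coreceptor gene Lrp5 had a peak of 40.6 at 5034 bases, and Tcf7l1, a transcription factor gene of the pathway, one of 36.8 at 6892 bases. Of 34 genes of TGF-beta and BMP signalling, 0 had such a peak and 9 were nearest to a peak elsewhere. Of 36 genes of receptor kinase, RAS and PI3K signalling, 2 had such a peak, among them the adaptor gene Grb2 with 30.2, close to the lowest score of the list.

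Of 30 cell cycle genes, 4 had an intronic peak near the TSS. The D-type cyclin genes Ccnd1 and Ccnd2 had peaks of 40.1 and 30.8, and the peak nearest to Ccnd2 stood in an intron of the gene 9330179D12Rik, 3144 bases upstream of the Ccnd2 start. The kinase inhibitor gene Cdkn1b had a peak of 36.2 and the replication helicase gene Mcm5 one of 32.6. Ccnd1 and Ccnd2 are also among the 35 listed let-7 targets, of which the third with such a peak was the death receptor gene Fas, at 30.3. Of 26 adhesion and junction genes, 3 had such a peak, among them the integrin gene Itga3 and the plakoglobin gene Jup with 37.6 each.

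Among 19 genes of microRNA processing, Dgcr8, the partner of the nuclear processing enzyme Drosha, had a peak of 34.7 at 920 bases, and the Argonaute gene Ago1 one of 30.3 at 2377 bases. Of 24 ribosome biogenesis genes only Nop2 had such a peak, the highest score of all 21 at 64.8. Of 31 genes of the actin cytoskeleton, Pxn, which encodes paxillin, had a peak of 33.0. None of 27 genes of PRC2 and the nuclear exosome and none of 28 genes of RNA polymerase II elongation had an intronic peak near the TSS, and 4 of each list were nearest to a peak elsewhere. At the 2.45% of protein-coding genes given above, lists of this size can hold 0 without standing apart.

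Cell type markers were present in small numbers of each kind. Of 32 lung epithelial genes, the alveolar gene Hopx had a peak of 30.3 in intron 1, 6874 bases upstream of another Hopx start. The mesenchymal filament gene Vim had a peak of 44.0 in a CpG island of intron 1 at 689 bases, 1 of 25 listed mesenchymal and matrix genes, and the endothelial gene Egfl7 one of 40.0 at 2091 bases, 1 of 17 endothelial and immune genes. The deposited lists hold only enriched RNAs, so they do not show whether the line expressed its markers. Of the epithelial genes Muc1, Sox9 and Lamp3 were on the mRNA list, at 0.242, 1.29 and 0.132 RPKM in the pull-down and 0.010, 0.227 and 0.040 RPKM in the input. That is 3 of 32, beside 4 of 25 mesenchymal and matrix genes and 3 of 17 endothelial and immune genes on the same list.

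The nearest TSS was that of a small RNA gene for 19 of the 602 peaks, 17 with a microRNA gene and 2 with a small nucleolar RNA gene. All 19 stood in an intron of another gene, as the rule requires where the nearest gene has no intron of its own. Whether that gene also holds the small RNA was not checked. The same count over all peaks was not made here. The highest score, 71.0, belonged to a peak 2604 bases downstream of Snora21 in intron 3 of Rpl23, a ribosomal protein gene. The peak nearest to Mir106b stood in the replication helicase gene Mcm7, with a score of 39.1, and that nearest to Mir152 in the coat protein gene Copz2, with a score of 40.5. None of the 602 was nearest to a let-7 gene. The peak of the whole list nearest to a let-7 gene, at Mirlet7i, had a score of 33.9 and another annotation class. The named microRNAs were chosen after their values were seen.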

How the data were processed

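ChIRP-seq peaks and 2 pull-down lists from MLE-12 cells were analysed, 1 library per group and no replicates. For ChIRP-seq the submitters' processing notes list Bowtie2, MACS, HOMER, bedtools, FastQC and SAMtools. For the pull-down they list Bowtie2, HOMER, Picard 1.119, bedtools 2.15, Trimmomatic, FastQC and SAMtools. Both name genome mm9. Read depths, the scale of the score and whether the input served as the MACS control are not given in the sources used here. Peaks carry the authors' deposited MACS score. Class, distance to the TSS and nearest gene come from the deposited annotation, whose starts equalled the BED starts plus 1. Per the file headers, the pull-down lists give RPKM for both libraries, and the authors' deposited fold is their ratio. No column of per-sample values was left unused (0).

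Peaks were selected by class, absence of a repeat name and distance. Genes were matched by accession, then symbol, to the RefSeq table of GRCm38.p6, used for names and biotypes, and the pull-down lists were matched by the deposited gene name. Shares carry exact Clopper-Pearson 95% intervals and medians an order-statistic interval. With 1 library per group no test was made. Calculations used Python 3.11.15, pandas 2.3.3 and scipy 1.17.1, and were tested on simulated data. The peak set, gene lists and the 5 peak-rich chromosomes were chosen with earlier results of these data known. Genes were named by a rule: the 10 highest scores, the 5 nearest to a TSS, the 5 widest, 2 on each side of the limit, all genes in a list, genes with 3 or more peaks, the 10 highest that overlap a noncoding candidate and the 5 highest with an mRNA candidate. Other names were chosen after their values were seen, namely the remaining peaks across the TSS, genes of dense windows, promoter-associated genes and small RNA genes. Some genes that the rule names are not reported here.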

Additional observations from a re-analysis of the deposited data

How the results depend on the processing

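Alternatives changed 1 choice at a time, and of 43 values 28 moved by less than their interval and 15 moved by more. A distance limit of 5000 bases gave 9.89% of all peaks instead of 14.0%, 90.1% downstream instead of 87.5%, 70.3% in intron 1 instead of 63.3% and 90.8% in the gene's own intron instead of 87.4%. Keeping repeat peaks gave 17.1% of all peaks. A minimum score of 40 raised the median width to 906.5 bases from 653 bases and the share on chromosomes 6, 8, 11, 16 and 19 to 76.3% from 66.4%, and gave 84.2% in the gene's own intron and 3.95% with an mRNA candidate instead of 5.98%. Without those 5 chromosomes the median score was 33.9, the median width 610.5 bases, the share in intron 1 57.9% and the share in the gene's own intron 82.7%. Asking for overlap by 1 base instead of a distance of 10 kb lowered the share near a noncoding candidate to 3.82% from 17.4%, and a distance of 1 kb to 5.81%, as a narrower window must. Matching genes by deposited or current name, chosen after seeing the data, gave 7.97% with a promoter-associated RNA and 6.15% with an mRNA candidate. The contrasts with other peaks were not recomputed under the other alternatives. The share near a noncoding candidate stayed between 17.3% and 17.9% under every change of distance limit, repeats, score and chromosomes. Replicates could not be left out with 1 library per group, and the read depth behind the peaks is unknown. No paired analysis was possible because each group holds 1 library.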

Other observations

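Intronic peaks within 10 kb of a TSS that carried a repeat name, which the selection left out, numbered 130. They had a median score of 34.0 and a median width of 645 bases, and 83.8% (76.4% to 89.7%) lay downstream of the TSS. Of the 130, 1 reached across the TSS. None of the 130 was annotated as a CpG island, which follows from the labels, as the annotation puts a repeat name or a CpG island in the same place. An mRNA candidate's span, introns included, overlapped 8 of the 130, 6.15% (2.69% to 11.8%). The share was 5.81% of the 602, 7.33% of far intronic peaks and 3.71% of all peaks.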
